A study of Mus musculus with 4 samples.

Results

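Integrins are cell surface receptors made of an alpha and a beta chain, and the pair of chains decides which matrix protein the receptor binds. Talins and kindlins bind the cytoplasmic tail of the beta chain and switch the receptor on, and vinculin, alpha-actinin and filamin tie it to the actin cytoskeleton at sites called focal adhesions. In the developing brain, laminin-binding integrins hold the end-feet of neural progenitors to the basement membrane. The genes described here were 36 of the 53465 genes in the count table, found by symbol. They were 12 integrin alpha chains, 7 integrin beta chains and 17 focal adhesion proteins.

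The values came from PS-RRA-mRNA-Seq, which sequences the mRNAs that stay in polysomes after a ribosome run-off assay. The comparison was between a pair of cell lines, each with 2 libraries: HD-homo cells (STHdhQ111/Q111), which express knock-in mutant huntingtin (Htt) exon 1 with 111 glutamine repeats, and control cells (STHdhQ7/Q7), which express the knock-in wild-type exon 1 with 7 repeats. Both are mouse striatal cells labelled C57/BL6, both carry a chimeric human and mouse Htt exon 1, and both were treated with harringtonine, which stops new initiation (2 µg/ml, 2 min). The comparison asked which mRNAs were bound to ribosomes that had not run off in HD-homo cells. Each group is a single cell line, so repeat length and any further difference of the lines cannot be told apart. Total RNA of these samples was not analysed here, so a difference in polysomal mRNA cannot be told apart from a difference in the amount of that mRNA in the cells. Nor can fewer cells of a type be told apart from less RNA per cell.

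The 2 HD-homo libraries held 12372090 and 14074182 counts and the 2 control libraries 14122706 and 15472808. Levels are given as CPM (the count of a gene relative to its library, after TMM scaling), and differences as log2 fold changes of HD-homo over control with their standard errors (SE). The quasi-likelihood test of edgeR was fitted across 12961 genes, and a gene was called at a Benjamini-Hochberg adjusted p under 0.05. A permutation test of a single gene could not go below an exact two-sided p of 0.33 with 2 libraries against 2. Of the 14 markers of striatal projection neurons that were checked, 9 had too few counts to be tested, and the dopamine receptor genes Drd1 and Drd2 were among those at 0 counts in all 4 libraries. Of the 5 tested, Foxp1 (148 and 116 CPM in HD-homo, against 55.9 and 62.5 CPM in control) and Ppp1r1b were higher, Adora2a and Pde10a were lower and Penk did not pass. Ppp1r1b entered the test through its HD-homo counts alone, and Adora2a and Pde10a through their control counts alone. By DESeq2, 1 of the 5 was higher and 1 was lower. Leaving out HD-homo replicate 2, control replicate 1 or control replicate 2 left 1 of them higher, and leaving out HD-homo replicate 1 or control replicate 1 left 1 lower.

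In HD-homo polysomes the beta 7 and alpha 2 chains were higher than in control polysomes, and the alpha 3, alpha 7, beta 4, beta 5 and beta 8 chains were lower. No focal adhesion protein was higher and 6 of 16 tested were lower, with talin 2 (Tln2) the furthest from control. Of the 36 genes, 29 had enough counts to be tested, and of these 2 were higher, beside 10.5% of all tested genes, and 11 were lower, beside 11.1% of all tested genes, so that the lower calls made up a larger share of these genes than of all genes. The other 16 did not pass the test. The median log2 fold change of the 29 genes was -0.54, against 0.0017 over all tested genes. Both HD-homo libraries were above both control libraries for 5 of the 29 genes (28.6% of all tested genes) and below both for 17 (28.5% of all tested genes), and the groups overlapped for 7. The lower count depended on single libraries: leaving out HD-homo replicate 1 gave 8, leaving out control replicate 2 gave 6 and leaving out control replicate 1 gave 13. Under a stricter filter of 10 or more counts per library, 1 was higher and 7 were lower.

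**Figure D1:**
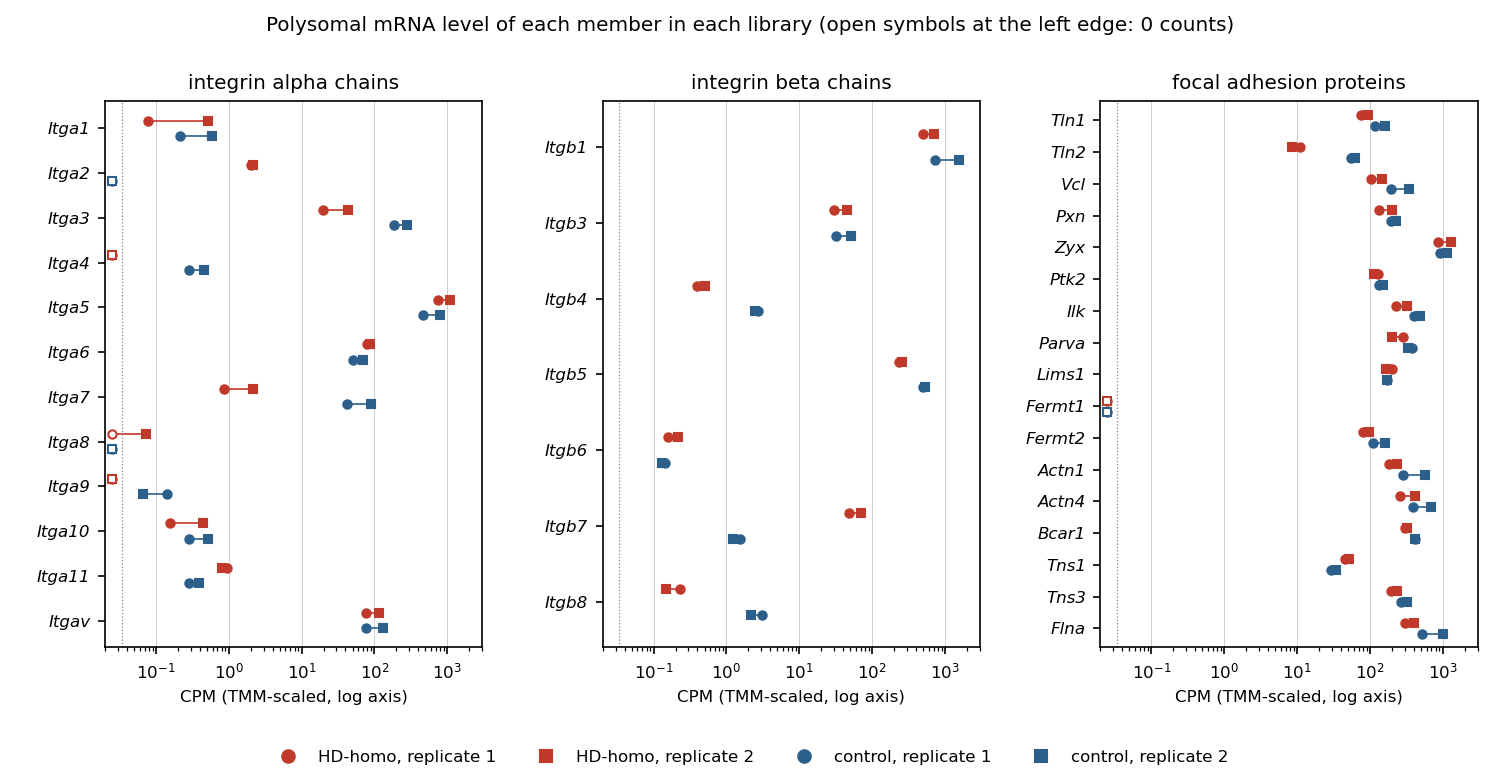
Level of each of the 36 genes in each library, in TMM-scaled CPM on a log axis, with HD-homo (red) above control (blue), circles for replicate 1 and squares for replicate 2, and open symbols left of the dotted line for 0 counts. Itgb7 sits between 48.6 and 70.1 CPM in HD-homo and between 1.25 and 1.56 CPM in control, while most focal adhesion proteins lie close together in the 4 libraries.

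Itgb7 encodes the beta 7 chain, which in leukocytes pairs with the alpha 4 or the alpha E chain and serves homing to the gut. Its level was 48.6 and 70.1 CPM in the HD-homo libraries, against 1.56 and 1.25 CPM in the control libraries. Both HD-homo libraries were far above both control libraries. The log2 fold change was 5.40 (SE 0.32, adjusted p = 6.17e-09 by edgeR), and it ranged between 5.11 and 5.66 over 12 alternative settings. Itgb7 lies at chr15:102215995-102231944 on the minus strand of GRCm38. The known partners of beta 7 were not seen in HD-homo polysomes: Itga4 (alpha 4) had 0 and 0 counts in HD-homo, against 4 and 7 counts in control, and Itgae (alpha E) had 0 and 0 counts in HD-homo, against 5 and 1 counts in control. A count of 0 in both HD-homo libraries allows up to 0.113 CPM. Itga4 was at least 3.31-fold lower in HD-homo, set against 3 counts over the group, at least 1.6-fold lower without HD-homo replicate 2, at least 1.71-fold lower without HD-homo replicate 1, at least 4.07-fold lower without control replicate 1 and at least 2.5-fold lower when control replicate 2 was left out. The 8 markers of leukocytes and platelets summed to 32.4 and 40.0 CPM in HD-homo, against 13.2 and 11.3 CPM in control, and most of that sum was Itga2b. Ptprc, the pan-leukocyte marker, had at most 2 counts in a library, and Aif1, Cd3e, Pf4 and Gp9 were at 0. Of the 3 markers tested, 2 were higher, Itga2b and Csf1r, a receptor of macrophages (23 and 18 counts in HD-homo, against 6 and 8 counts in control), while Cd68 had 32 and 59 counts in HD-homo, against 59 and 55 counts in control, and did not pass. Csf1r entered the test through its HD-homo counts alone and did not pass by DESeq2 (adjusted p = 0.143). Only Itga2b remained higher when HD-homo replicate 1, control replicate 1 or control replicate 2 was left out. The part of these markers in the Itgb7 difference was not tested.

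The promoter of Itgb7 is shown because this gene had the lowest p of the 36. RefSeq promoters of GRCm38.p6, from 250 bases before to 50 bases after the start, were found for 28 of the 36 genes, and the printed ones were chosen after the values were seen. Only the first listed promoter of each gene was used, and some, such as those of Itga9 and Flna, lie inside the annotated gene and not at its outer start. Capitals mark matches on either strand to the GC box GGGCGG, the TATA box TATAAA, the AP-1 site TGANTCA, the TEAD site GGAATG and the CArG box, which binds serum response factor. The Itgb7 promoter, at chr15:102231886-102232185 on the minus strand, held none of them.
Itgb7 promoter: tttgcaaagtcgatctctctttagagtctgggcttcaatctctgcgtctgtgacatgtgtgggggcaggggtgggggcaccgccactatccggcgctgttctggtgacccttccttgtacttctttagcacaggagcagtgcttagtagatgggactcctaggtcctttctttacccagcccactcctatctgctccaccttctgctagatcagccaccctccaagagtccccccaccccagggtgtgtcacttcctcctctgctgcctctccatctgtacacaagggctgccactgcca
Of the 28 promoters, 18 held a GC box, 3 an AP-1 site, 5 a TEAD site and 2 a CArG box, and none held the TATA box. The same letters were in 35.7% (GC box), 7.81% (AP-1 site), 14.7% (TEAD site), 1.63% (CArG box) and 13.6% (TATA box) of 32851 RefSeq promoters of that length, which were not limited to the first listed of each gene. A match is a run of letters, not a measured binding site.

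The collagen-binding group of alpha chains has 4 members. Itga2 (alpha 2, the collagen receptor of platelets and epithelia) had 26 and 29 counts in the HD-homo libraries, or 2.02 and 2.12 CPM, and 0 counts in both control libraries. Set against 3 counts over the control group, Itga2 was at least 20.3-fold higher, at least 10.5-fold higher without control replicate 1 and at least 9.76-fold higher without control replicate 2. It passed the test (adjusted p = 2.73e-05, edgeR), but it entered the test through its HD-homo counts alone. Itga11 (alpha 11, a receptor of fibrillar collagen in fibroblasts) had 0.934 and 0.803 CPM in HD-homo, against 0.283 and 0.394 CPM in control, and missed the threshold (log2 fold change 1.33, SE 0.57, adjusted p = 0.123, edgeR). With 12 and 11 counts in HD-homo, against 4 and 6 counts in control, Itga11 also entered the test through its HD-homo counts alone. Itga1 and Itga10, the other collagen receptors, had at most 9 counts in a library and were not tested. The Itga2 promoter, at chr13:114932051-114932350 on the minus strand, is shown as that of the other higher chain and held 1 GC box.
Itga2 promoter: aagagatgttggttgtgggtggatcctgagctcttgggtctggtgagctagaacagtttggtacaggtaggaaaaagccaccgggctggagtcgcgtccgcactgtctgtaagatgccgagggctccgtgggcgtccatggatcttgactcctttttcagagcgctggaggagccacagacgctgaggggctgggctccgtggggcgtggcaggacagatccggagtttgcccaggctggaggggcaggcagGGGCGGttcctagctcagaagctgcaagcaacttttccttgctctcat

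Of the 4 laminin-binding chains, 3 were lower in HD-homo polysomes, beside 11.1% of all tested genes. Under the filter of 10 or more counts per library, 3 were tested and 2 were lower. Itga7 (alpha 7, the main laminin receptor of muscle) had 0.856 and 2.12 CPM in the HD-homo libraries, against 41.5 and 90.0 CPM in the control libraries. Both HD-homo libraries were far below both control libraries. Its log2 fold change of -5.45 (SE 0.51, adjusted p = 4.76e-05, edgeR) was -6.25 without HD-homo replicate 2 and -4.78 when control replicate 2 was left out, and it passed the test in both cases. Itga3 (alpha 3, a laminin receptor of epithelia and neural progenitors) had 19.4 and 42.9 CPM in HD-homo, against 183 and 279.8 CPM in control. The Itga3 log2 fold change was -2.89 (SE 0.38, adjusted p = 5.30e-04, edgeR), and it was -3.58 when HD-homo replicate 2 was left out. Itgb4 (beta 4, the hemidesmosome chain that pairs with alpha 6) had 0.389 and 0.511 CPM in HD-homo, against 2.69 and 2.50 CPM in control, which gives a log2 fold change of -2.50 (SE 0.47, adjusted p = 7.47e-04, edgeR). With 5 and 7 counts in HD-homo, against 38 and 38 counts in control, Itgb4 entered the test through its control counts alone. The fourth laminin receptor chain, Itga6 (alpha 6), had the opposite sign but did not pass: it was at 78.9 and 86.6 CPM in HD-homo, against 51.4 and 69.1 CPM in control (log2 fold change 0.46, SE 0.22, adjusted p = 0.174, edgeR). Itga7 lies at chr10:128933818-128958282 and Itgb4 at chr11:115974709-116008412, both on the plus strand, and Itga3 lies at chr11:95044474-95076801 on the minus strand. The Itga3 promoter, at chr11:95076665-95076964 on the minus strand, is shown as that of the lower laminin receptor with the most counts and held 3 GC boxes.
Itga3 promoter: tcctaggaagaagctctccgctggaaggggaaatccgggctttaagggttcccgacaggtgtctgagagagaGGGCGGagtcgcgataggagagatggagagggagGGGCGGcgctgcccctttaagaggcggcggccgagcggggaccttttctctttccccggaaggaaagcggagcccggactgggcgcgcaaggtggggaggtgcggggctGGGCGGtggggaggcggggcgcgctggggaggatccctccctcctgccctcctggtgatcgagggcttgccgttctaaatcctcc

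Summed markers of smooth muscle, a tissue that makes much Itga7, were also lower, at 658 and 612 CPM in HD-homo, against 4257 and 5896 CPM in control. Acta2 alone made up most of that sum in every library. Of the 8 markers, 6 were tested, 3 were lower and 1, the desmin gene Des, was higher, while Myh11 and Myocd, which define mature smooth muscle, had at most 1 count in a library. Summed skeletal muscle markers were at 7.86 and 11.1 CPM in HD-homo, against 2.97 and 4.07 CPM in control. Des, counted in both muscle lists, made up most of the HD-homo sum, and Myod1, Myog, Myh3 and Ckm were at 0 counts. Epithelial markers summed to 1.48 and 1.83 CPM in HD-homo, against 3.25 and 6.30 CPM in control. Krt8, the only epithelial marker tested, was lower and made up most of the control sum. It entered the test through its control counts alone. With too few counts to be tested, Epcam, Krt14 and Krt18 were above control in both HD-homo libraries, and Cdh1 was below. Endothelial markers summed to under 1 CPM in every library. Mesenchymal markers summed to 8215 and 8761 CPM in HD-homo, against 5588 and 7818 CPM in control. Of the 7 mesenchymal markers tested, 3 were higher and 1, the vimentin gene Vim, was lower, but Vim did not pass without HD-homo replicate 1, control replicate 1 or control replicate 2. The higher ones were the collagen genes Col1a1 and Col1a2 and the growth factor receptor gene Pdgfra, which had 36.3 and 40.1 CPM in HD-homo, against 0.990 and 1.18 CPM in control. The part of these markers in the integrin differences was not tested.

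Of the 3 listed alpha chains that bind the RGD sequence of fibronectin and vitronectin (Itga5, Itgav and Itga8), 2 were tested and neither passed. Itga2b (alpha IIb, the platelet fibrinogen receptor chain) was counted outside this list and was higher (log2 fold change 2, adjusted p = 2.58e-05, edgeR). Itga5 (alpha 5, which with beta 1 forms the classical fibronectin receptor) was the most abundant alpha chain per kilobase in every library and had 744 and 1096 CPM in HD-homo, against 458 and 789 CPM in control. The groups overlapped and Itga5 did not pass the test (log2 fold change 0.56, SE 0.28, adjusted p = 0.205, edgeR). It did pass without HD-homo replicate 1 (log2 fold change 0.83, adjusted p = 0.0219) and without control replicate 2 (1.01, adjusted p = 0.0318), with adjusted p between 0.0107 and 0.770 over 12 alternatives. Itgav (alpha v) was at 76.2 and 114.5 CPM in HD-homo, against 76.3 and 130.3 CPM in control, with a log2 fold change of -0.12 (SE 0.28, adjusted p = 0.841, edgeR). Itga8, the remaining chain of this list, had a single count in the 4 libraries and was not tested. Itga9, which resembles alpha 4, had 0 counts in both HD-homo libraries, against 2 and 1 counts in the control libraries.

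Among the beta chains other than beta 1 that pair with alpha v, 2 of 3 tested were lower, beside 11.1% of all tested genes. Itgb5 (beta 5, a vitronectin receptor) had 235 and 258 CPM in HD-homo, against 497 and 539 CPM in control. Its groups did not overlap, and its log2 fold change of -1.07 (SE 0.20, adjusted p = 8.94e-04, edgeR) ranged between -1.14 and -0.99 over 12 alternatives. Itgb8 (beta 8, which with alpha v activates latent TGF-beta) had 3 and 2 counts in the HD-homo libraries, against 44 and 33 counts in the control libraries, or 0.233 and 0.146 CPM in HD-homo, against 3.11 and 2.17 CPM in control. The Itgb8 log2 fold change was -3.74 (SE 0.56, adjusted p = 1.09e-04, edgeR), but Itgb8 entered the test through its control counts alone. Itgb3 (beta 3) was at 30.0 and 45.6 CPM in HD-homo, against 32.3 and 50.5 CPM in control (log2 fold change -0.13, SE 0.28, adjusted p = 0.809, edgeR), and Itgb6 had at most 3 counts in a library. Itgb5 lies at chr16:33829665-33949338 on the plus strand and Itgb8 at chr12:119158022-119238802 on the minus strand.

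Itgb1 (beta 1, the common partner of most alpha chains) was the most abundant beta chain, with 494 and 716 CPM in HD-homo, against 728 and 1572 CPM in control. Both HD-homo libraries were below both control libraries, but the control libraries lay far apart. Its log2 fold change of -0.93 (SE 0.35) missed the threshold (adjusted p = 0.0997, edgeR). It passed by DESeq2 (log2 fold change -0.92, adjusted p = 0.0300) and in edgeR without control replicate 1 (-1.38, adjusted p = 8.77e-04), and was -0.27 without control replicate 2 (adjusted p = 0.716, edgeR), which are the ends of its fold changes over 12 alternatives. Adjusted p ranged between 1.46e-04 and 0.716 over those alternatives.

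**Figure D2:**
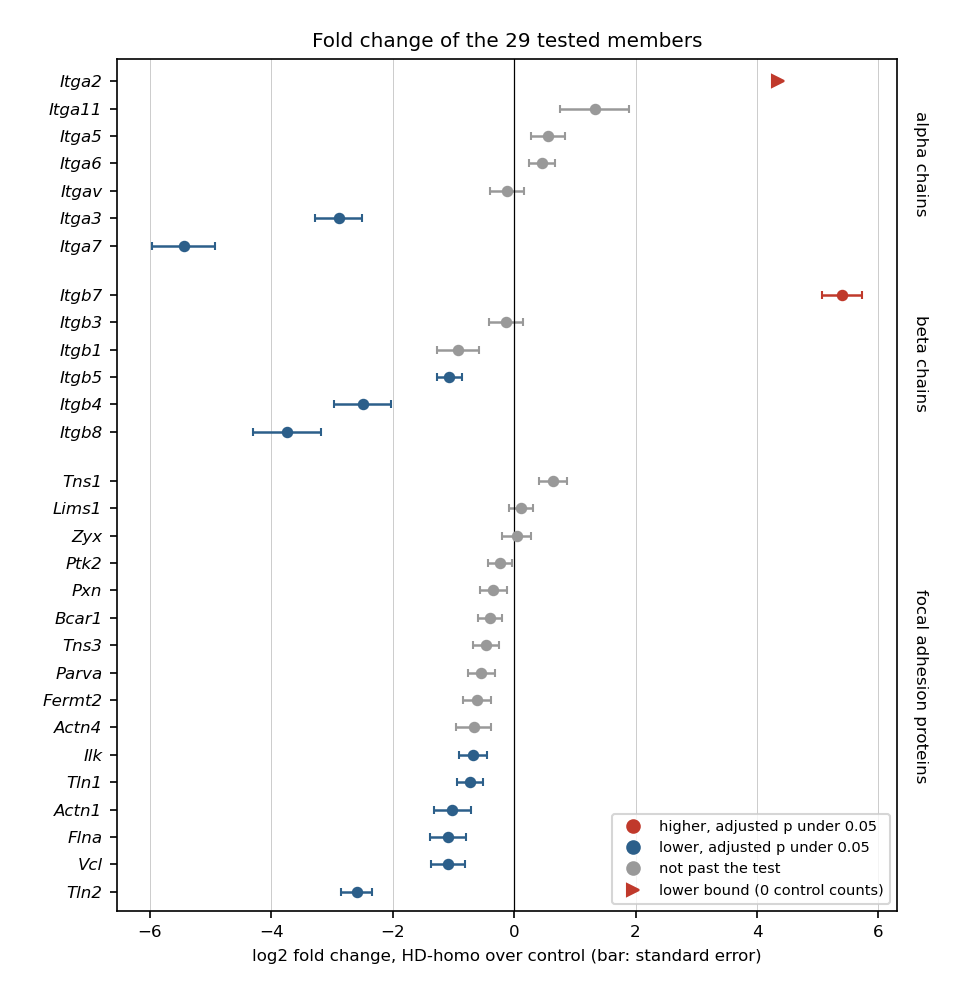
Log2 fold change of HD-homo over control with its standard error for the 29 tested genes, ordered within each role, with red for higher, blue for lower and grey for genes that did not pass edgeR's test. Integrin chains extend from Itga7 at -5.45 to Itgb7 at 5.40, with Itga2 drawn as a lower bound, whereas all focal adhesion proteins but Tln2 lie between -1.09 and 0.64.

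Levels of different chains were compared per kilobase of annotated exon. Itga5 made up 88.4% and 88.6% of the summed alpha chain CPM per kb in HD-homo, against 65.0% and 66.6% in control. Itga3 made up 1.99% and 2.99% in HD-homo, against 22.4% and 20.4% in control, and Itga7 0.0620% and 0.104% in HD-homo, against 3.58% and 4.63% in control. The alpha chains summed to 170.7 and 250.8 CPM per kb in HD-homo, against 143 and 240.2 CPM per kb in control, so the sums overlapped, while the shares of Itga5, Itga3 and Itga7 did not. Among beta chains, Itgb7 made up 8.36% and 8.999% of the summed CPM per kb in HD-homo, against 0.173% and 0.0824% in control. Itgb1 (57.6% and 62.4% in HD-homo, against 54.9% and 70.5% in control) and Itgb5 (31.5% and 25.8% in HD-homo, against 43.1% and 27.8% in control) made up most of the rest. The beta chains summed to 209.9 and 281.3 CPM per kb in HD-homo, against 325.1 and 546.6 CPM per kb in control. These shares were described and not tested.

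**Figure D3:**
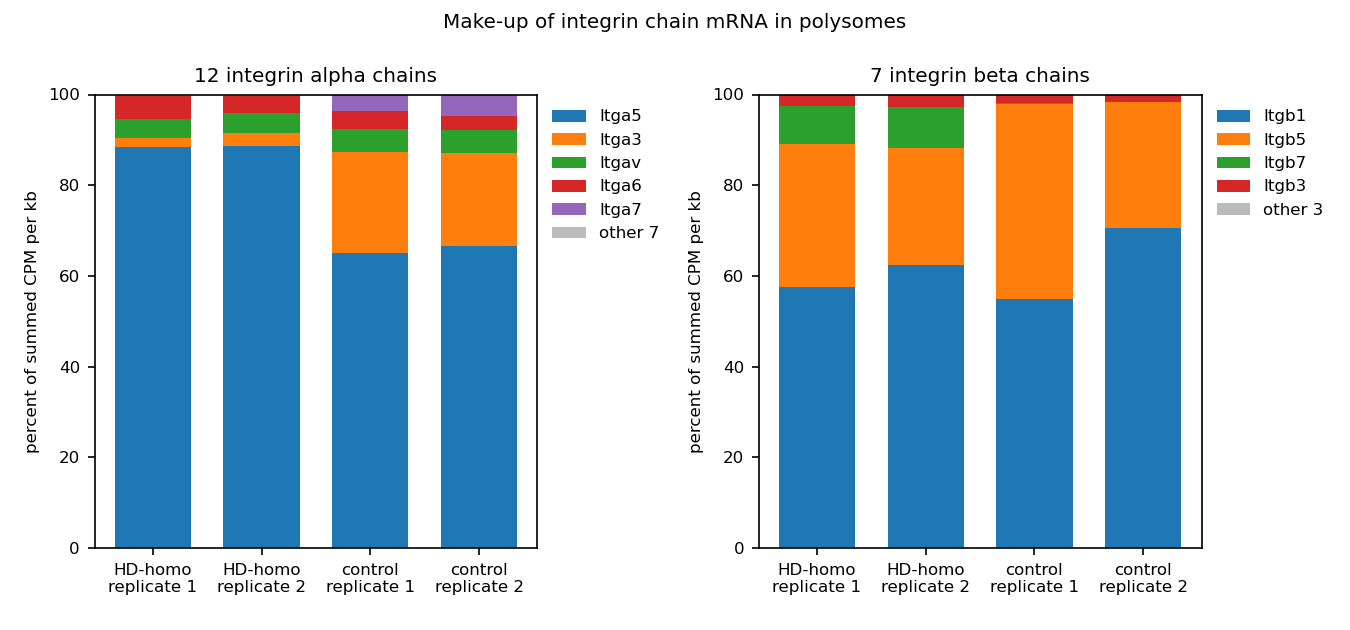
Share of each chain in the summed CPM per kb of 12 alpha chains (left panel) and 7 beta chains (right panel), in percent, with 1 bar for each library and the HD-homo libraries left of the control libraries. The Itga3 segment is 1.99% and 2.99% in HD-homo and 22.4% and 20.4% in control, and the Itgb7 segment is 8.36% and 8.999% in HD-homo and too thin to see in control (0.173% and 0.0824%).

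The talins, which bind beta chain tails and activate the receptor, were both lower in HD-homo polysomes. Tln2 (talin 2) had 11.0 and 8.54 CPM in HD-homo, against 54.3 and 63.4 CPM in control. Its log2 fold change was -2.59 (SE 0.25, adjusted p = 1.16e-06, edgeR), ranging between -2.77 and -2.42 over 12 alternatives, and Tln2 passed the test in all of them. Tln1 (talin 1, the more abundant form) had 76.2 and 94.3 CPM in HD-homo, against 119 and 163 CPM in control (log2 fold change -0.73, SE 0.22, adjusted p = 0.0263, edgeR). Tln1 did not pass without HD-homo replicate 1 (log2 fold change -0.56, adjusted p = 0.158) or without control replicate 2 (-0.48, adjusted p = 0.329), and its adjusted p ranged between 2.67e-05 and 0.329 over 12 alternatives. Fermt2 (kindlin 2) had 81.3 and 97.4 CPM in HD-homo, against 110.5 and 162 CPM in control, and did not pass (log2 fold change -0.61, SE 0.23, adjusted p = 0.0694, edgeR), although it passed without control replicate 1 (-0.86, adjusted p = 0.0226, within a range of 7.12e-04 to 0.613 over 12 alternatives). Fermt1 (kindlin 1, the epithelial form) was at 0 counts in all 4 libraries. Tln1 lies at chr4:43531519-43562691 and Tln2 at chr9:67217087-67559703, both on the minus strand.

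Of the 7 proteins that link adhesions to actin, 3 were lower, beside 11.1% of all tested genes, and 4 did not pass. Vcl (vinculin) had 105 and 146 CPM in HD-homo, against 193 and 341 CPM in control (log2 fold change -1.09, SE 0.28, adjusted p = 0.0131, edgeR). Flna (filamin A, an actin crosslinker) had 304 and 407 CPM in HD-homo, against 518 and 994 CPM in control (log2 fold change -1.09, SE 0.30, adjusted p = 0.0212, edgeR). Actn1 (alpha-actinin 1) had 184 and 236 CPM in HD-homo, against 284 and 569 CPM in control (log2 fold change -1.02, SE 0.31, adjusted p = 0.0364, edgeR). In each of these genes the groups did not overlap, and control replicate 2 was the highest library. Without control replicate 2 none of the 3 passed, with log2 fold changes of -0.63 for Vcl (adjusted p = 0.155), -0.54 for Flna (adjusted p = 0.299) and -0.44 for Actn1 (adjusted p = 0.428), all by edgeR. Without HD-homo replicate 1 Vcl passed, while Flna (-0.88, adjusted p = 0.0848) and Actn1 (-0.84, adjusted p = 0.135) did not. Over 12 alternatives adjusted p ranged between 3.00e-09 and 0.155 for Vcl, between 5.76e-07 and 0.299 for Flna and between 7.82e-07 and 0.428 for Actn1. Vcl lies at chr14:20929398-21033676 on the plus strand, Flna at chrX:74223461-74249820 and Actn1 at chr12:80167547-80260371, both on the minus strand.

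The Vcl promoter is shown because it held more kinds of the searched motifs than the other promoters of lower genes. It lies at chr14:20929148-20929447 on the plus strand and held a CArG box, a TEAD site and 4 GC boxes, of which 2 overlap each other. The other CArG box among the 28 promoters was in that of Fermt2.
Vcl promoter: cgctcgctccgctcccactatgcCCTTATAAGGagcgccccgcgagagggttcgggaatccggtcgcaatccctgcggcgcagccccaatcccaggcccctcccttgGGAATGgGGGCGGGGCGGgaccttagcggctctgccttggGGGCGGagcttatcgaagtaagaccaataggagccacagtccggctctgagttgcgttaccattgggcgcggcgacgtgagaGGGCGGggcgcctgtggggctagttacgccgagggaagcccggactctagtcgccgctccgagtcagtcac

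The other actin linkers did not pass the test. Zyx (zyxin, a protein of mature adhesions) was the most abundant focal adhesion mRNA per kilobase, with 158 and 238 CPM per kb in HD-homo, against 172 and 213 CPM per kb in control. Its level was 853 and 1285 CPM in HD-homo, against 927 and 1149 CPM in control (log2 fold change 0.04, SE 0.24). Actn4 (alpha-actinin 4) had 262 and 415 CPM in HD-homo, against 396 and 680.4 CPM in control, a difference of -0.67 on the log2 scale (SE 0.29, adjusted p = 0.147, edgeR). Actn4 passed without HD-homo replicate 2 (-1.04, adjusted p = 0.0132) and when control replicate 1 was left out (-1.004, adjusted p = 0.0166), within a range of 0.00166 to 0.758 over 12 alternatives. Tns1 (tensin 1) had the opposite sign: it was at 46.1 and 52.0 CPM in HD-homo, against 28.8 and 34.3 CPM in control. Both HD-homo libraries of Tns1 were above both control libraries, but its log2 fold change of 0.64 (SE 0.23) did not pass (adjusted p = 0.0582, edgeR). For Tns3 (tensin 3) the log2 fold change was -0.46 (SE 0.21, adjusted p = 0.153, edgeR).

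In the complex of Ilk, Lims1 and Parva, which connects beta chain tails to actin, 1 of 3 genes was lower, beside 11.1% of all tested genes. Ilk (integrin-linked kinase) had 229.8 and 325 CPM in HD-homo, against 402 and 484 CPM in control (log2 fold change -0.68, SE 0.23, adjusted p = 0.0417, edgeR). Ilk did not pass without HD-homo replicate 1 (-0.43, adjusted p = 0.262), without control replicate 1 (-0.80, adjusted p = 0.0692), without control replicate 2 (-0.54, adjusted p = 0.296) or under the filter of 10 or more counts per library (adjusted p = 0.0605), and its adjusted p ranged between 5.85e-04 and 0.296 over 12 alternatives. Parva (alpha-parvin) had 287 and 204 CPM in HD-homo, against 379 and 334 CPM in control (log2 fold change -0.54, SE 0.22, adjusted p = 0.103, edgeR), and passed without HD-homo replicate 1 (-0.79, adjusted p = 0.0200, within a range of 0.00591 to 0.439 over 12 alternatives). Lims1 (PINCH 1) had 201 and 168 CPM in HD-homo, against 169 and 171 CPM in control (log2 fold change 0.12, SE 0.20). Ilk lies at chr7:105736592-105742925 on the plus strand.

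The signalling proteins of the adhesion did not pass the test in either direction. Ptk2 (focal adhesion kinase) had 128 and 115 CPM in HD-homo, against 134 and 152 CPM in control (log2 fold change -0.23, SE 0.20). Pxn (paxillin, a scaffold) had 133 and 200.04 CPM in HD-homo, against 195 and 227 CPM in control (log2 fold change -0.34, SE 0.23, adjusted p = 0.355, edgeR). Bcar1 (p130Cas, a scaffold phosphorylated on stretch) had 303 and 321 CPM in HD-homo, against 409.8 and 409.7 CPM in control, and its groups did not overlap (log2 fold change -0.39, SE 0.20, adjusted p = 0.202, edgeR).

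The median of the 16 tested focal adhesion proteins was -0.58 on the log2 scale. By edgeR, 0 were higher, beside 10.5% of all tested genes, and 6 were lower, beside 11.1% of all tested genes. Adjusted calls were 0 higher and 6 lower by DESeq2 and by limma-voom alike. Fewer of these 6 lower genes passed when HD-homo replicate 1 or control replicate 2 was left out. The log2 fold change of Tln2 stayed between -2.77 and -2.42 over 12 alternatives. Replicate 2 was above replicate 1 for 23 of the 29 tested genes in HD-homo and for 23 in control, and in both groups for 19. Of all tested genes, replicate 2 was above replicate 1 for 47.9% in HD-homo, for 49.7% in control and for 30.5% in both groups. Exons of Ilk overlap those of Taf10 and Rrp8 on the other strand, exons of Tln1 those of Creb3, and exons of Vcl those of Ap3m1. The strand setting of the counting is not given in the sources used here, so reads of these pairs may not be told apart.

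**Figure D4:**
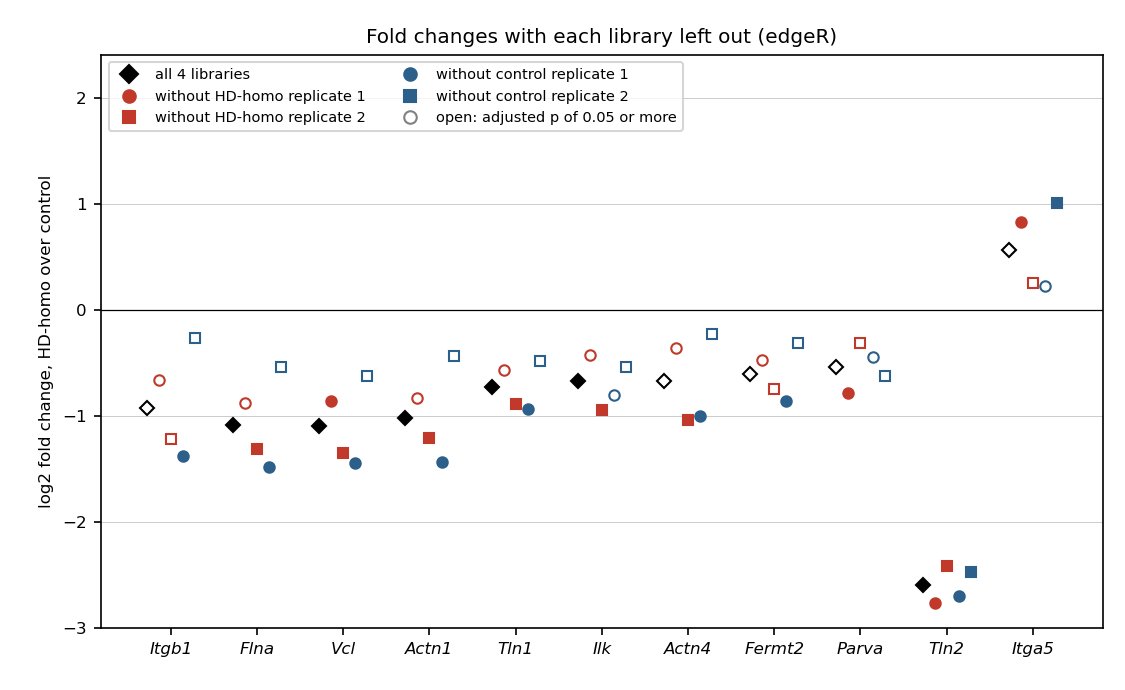
Log2 fold change of HD-homo over control from all 4 libraries (black) and with 1 HD-homo library (red) or 1 control library (blue) left out, for 11 genes, with filled symbols at an adjusted p under 0.05 (edgeR). Tln2 stays between -2.77 and -2.42 throughout, whereas Flna is at -0.54, Vcl at -0.63 and Actn1 at -0.44 without control replicate 2, all as open symbols.

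Other genes of the pathway were counted from lists. Of the other integrin chains, only Itga2b (alpha IIb, the platelet fibrinogen receptor chain) had enough counts to be tested. Itga2b had 28.1 and 34.3 CPM in HD-homo, against 8.56 and 7.03 CPM in control (log2 fold change 2.0, SE 0.26, adjusted p = 2.58e-05, edgeR). Its partner in platelets is beta 3, whose groups overlapped, and the platelet genes Pf4 and Gp9 were at 0 counts.

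Of 65 other adhesion complex genes, 59 were tested, 4 were higher (10.5% of all tested genes) and 9 were lower (11.1% of all tested genes), with a median log2 fold change of -0.11. The share of higher calls was below, and that of lower calls above, the share over all genes, and this difference was not tested. Sorbs2 (an adaptor that binds vinculin) had 0.389 and 0.219 CPM in HD-homo, against 43.4 and 37.2 CPM in control (log2 fold change -7.02, SE 0.39, adjusted p = 2.41e-09, edgeR). It entered the test through its control counts alone. Tes (testin, which binds zyxin) had 53.6 and 54.2 CPM in HD-homo, against 253.7 and 237 CPM in control (log2 fold change -2.19). Vasp (an actin elongation factor that zyxin recruits) had 170.2 and 228 CPM in HD-homo, against 443 and 490.4 CPM in control (log2 fold change -1.23). Cass4, a relative of Bcar1, had 14 and 33 counts in HD-homo, against 0 and 2 counts in control, a ratio of 26 (95% Clopper-Pearson counting interval 6.81 to 221). Cass4 entered the test through its HD-homo counts alone. With control replicate 1 left out the ratio for Cass4 was 13.5 (3.53 to 115), with HD-homo replicate 2 left out it was 16 (3.67 to 145), and with control replicate 2 left out, which held both control counts, Cass4 was at least 8.34-fold higher.

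Matrix proteins and other ligands of integrins were called in both directions. Of 36 listed ligand genes, 26 were tested, 10 were higher (10.5% of all tested genes) and 7 were lower (11.1% of all tested genes), with a median log2 fold change of 0.29. Tgfbi, a secreted RGD protein, had 74.1 and 83.4 CPM in HD-homo, against 1.91 and 1.51 CPM in control (log2 fold change 5.52, SE 0.29, adjusted p = 1.67e-09, edgeR). Lrrc32, which holds latent TGF-beta at the cell surface, had 55.9 and 72.4 CPM in HD-homo, against 0.141 and 0.131 CPM in control (log2 fold change 8.79). It entered the test through its HD-homo counts alone. Spp1 (osteopontin, an RGD ligand) was lower, with 40.1 and 40.1 CPM in HD-homo, against 154.6 and 199.7 CPM in control (log2 fold change -2.14, SE 0.22, adjusted p = 1.82e-06, edgeR). Under the filter of 10 or more counts per library, 6 ligands were higher and 7 were lower.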

How the data were processed

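PS-RRA-mRNA-Seq of 2 HD-homo and 2 control libraries was analysed from gene counts. Per the submitters' processing notes, the authors trimmed reads with cutadapt, used Bowtie 1.1.2 and RSEM 1.3.0 with GRCm38.p5 and mm10, and tested with DESeq2. Counts were deposited as whole numbers. For strand setting and rounding, nothing is given in the sources used here. The authors' normalized counts were not used.

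Counts were tested with edgeR 4.0.16 in R 4.3.3 (filterByExpr, TMM, robust quasi-likelihood, Benjamini-Hochberg over 12961 genes), after the code was tested on simulated data. The study describes the 2 libraries of a group as independent experiments, and p-values measure the spread between them. Standard errors follow from the F statistic. Genes with 0 counts in a group were set against 3 counts over the group, and genes with 1 to 3 were given as a ratio with a 95% Clopper-Pearson interval, which covers counting error only. The bound at 0 counts takes no account of counting error in the other group. Alternatives were other scalings and filters, DESeq2 1.42.0, limma-voom (limma 3.58.1), the replicate number as a block and leaving out each library. Exon lengths and positions came from GENCODE annotation of GRCm38, promoters from RefSeq. Protein sequences were not analysed here, and the value of 1 marker gene is not reported here. The genes and lists were chosen with earlier results of these data known. Values are given for genes that passed the test, those that passed under another setting, the most abundant others and up to 4 genes with the lowest p of each other list.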

Additional observations from a re-analysis of the deposited data

How the results depend on the processing

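Scaling by RLE, upper quartile or library totals moved the median of all genes by at most 0.019 and each gave 11 lower of the 36 genes. Over the named genes and alternatives, 409 comparisons kept their direction and side of the threshold, 21 passed only under the alternative, 12 no longer passed and 7 changed sign. The sign changes were in genes that did not pass: Itgav (0.165 without HD-homo replicate 1 and 0.321 if control replicate 2 was left out, over a range of -0.447 to 0.321), Itgb3 (0.154 and 0.224 for those libraries, -0.464 to 0.224), Zyx (-0.283 without HD-homo replicate 2 and -0.101 if control replicate 1 was left out, -0.283 to 0.324) and Lims1 (-0.003 without HD-homo replicate 1, -0.003 to 0.241).

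With at least 10 counts in every library, fewer genes were tested: 832 were higher and 900 lower, among them 1 and 7 of the 36 genes, 0 alpha chains higher and 1 beta chain lower. With no filter, 4 of the 36 were higher, 2 alpha chains and 1 focal adhesion protein among them. Leaving out a library gave 6 to 13 lower genes of the 36, 1 to 7 lower focal adhesion proteins and 1 to 2 higher alpha chains; the cause was not tested.

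The replicate numbers are shared between groups, but no label says that a number marks a shared batch. The difference between replicates correlated by 0.445 between the groups over tested genes. With the replicate block, 2133 genes were higher and 2365 lower, among them 5 and 16 of the 36 genes, 3 alpha chains higher, and 1 focal adhesion protein higher and 10 lower. Replicates of a group differed beyond sampling noise (chi-square per degree of freedom 30.5 in HD-homo and 29 in control), and 7 of the 36 genes had too few counts at this depth to be tested.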
